A study of Mus musculus with 768 samples.

Results

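The nuclear-encoded subunits of the mitochondrial respiratory chain were measured in single endothelial cells of mouse lymph node and tumour. The genes were taken by name: Ndufa, Ndufb, Ndufc, Ndufs and Ndufv symbols followed by a number, Sdha to Sdhd, the Uqcr symbols, and the Cox symbols of subunits 4 to 8, without pseudogenes. The rule found 66 of 51734 features, of which 36 name subunits of complex I, 4 of complex II, 8 of complex III and 18 of complex IV. No measured value entered it.

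The respiratory chain lies in the inner mitochondrial membrane. Complex I takes electrons from NADH and complex II takes them from succinate, ubiquinone carries them to complex III, and cytochrome c carries them to complex IV, which reduces oxygen. Complexes I, III and IV pump protons, and ATP synthase uses their return to make ATP. Part of the catalytic core of complexes I, III and IV is encoded by mitochondrial DNA, and all other subunits are made from nuclear genes. The genes described here are the nuclear genes that the name rule takes. The rule does not match every nuclear subunit gene. Cyc1 of complex III, listed here with the electron carriers, and the symbol Ndufab1 fall outside it. Sums and medians by complex therefore cover the members only. Endothelial cells are known to make much of their ATP by glycolysis, and their mitochondria are also known for roles in biosynthesis and redox balance.

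The 3 groups compared were all CD45-CD31+ cells. LN_HEV cells were MECA79+ cells from lymph node, and TU_HEV cells were MECA79+ cells from PyMT tumours, the mouse mammary tumours driven by the polyoma middle T oncogene. TU_EC cells were MECA79- cells from PyMT tumours. MECA79 is an antibody to sulphated sugars of high endothelial venules (HEV), the vessels through which lymphocytes enter lymph nodes. The series title speaks of immunotherapy, but no label gives a treatment, strain, age or animal for any library, so each group is 1 sample here. Tumour cells and leukocytes were depleted with EpCAM and CD45 beads before the sort. Single cells went into 8 plates of 96 wells: pool1 and pool2 held LN_HEV, pool3 and pool4 TU_HEV, and poolA, poolB, poolC and poolD TU_EC, and plate values below are given in this order. Plates are not animals, so the spread between them may be technical, and no test between groups was possible. TU_EC libraries have their own table and numbering, so the gate and the set of libraries cannot be told apart in comparisons with TU_EC.

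After filters, 62 and 79 cells of the LN_HEV plates were kept, 50 and 48 of the TU_HEV plates, and 68, 81, 82 and 72 of the TU_EC plates, with 118731907, 132533194 and 151643361 counts summed by group and medians of 871680, 1347900 and 422350 counts per cell. These totals leave out 2 ribosomal RNA features that took 16.6%, 9.36% and 31.6% of all counts. All 5 endothelial markers (Pecam1, Cdh5, Tie1, Egfl7, Eng) passed 20 CPM, counts scaled to a common library total, in each group, and 0 of 6 leukocyte, 0 of 6 epithelial and 0 of 6 mural and fibroblast markers did so in any group. The filter on cells used these same genes and so favoured this outcome. The HEV markers Glycam1 and Chst4 stood at 77494 and 1323 CPM in LN_HEV, 140.9 and 228.3 in TU_HEV, and 0.290 and 0 in TU_EC. In the same order of groups, Fut7 was at 1275, 20.3 and 0 CPM and Enpp2 at 4214.7, 431.0 and 26.7. Ccl21a, at 22575, 0.415 and 1646 CPM, and Gcnt1, at 284.1, 9.35 and 12.5, were under 20 CPM in TU_HEV and higher in TU_EC. Together the 6 HEV genes took 0.0830% of TU_HEV counts and 0.169% of TU_EC counts. In TU_EC, 4 of 5 lymphatic markers passed 20 CPM. In LN_HEV, 3 of 4 erythroid and platelet markers did. The haemoglobin genes Hba-a1 and Hbb-bs were at 0.123 and 0.0981 CPM in pool1 and at 1138 and 1273 in pool2, and the platelet gene Pf4 was at 569.5 and 481.8 CPM, against at most 12.7 CPM in any tumour plate. The 4 erythroid and platelet markers took 0.289% of the summed pool2 counts. They took a median of 0.0262% in single pool2 cells and 15.3% in the highest LN_HEV cell. Their part in the results was not tested. A further 11 libraries of pool1 were left out, since each held 99.88 to 99.99% of the counts of a TU_HEV cell, gene by gene, and the other 62 pool1 cells held at most 64.6%. With them, the median log2 ratio of the members between TU_HEV and LN_HEV was 0.02 in place of 0.08.

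Promoter sequence is shown for 5 members that the results below return to: Cox6a1 and Ndufv2, which differed between both HEV groups, Ndufs5 and Sdhd as examples of members with a match, and Cox7a1, an isoform near 0. The sequences come from RefSeq (GRCm38.p6), which gave 55 windows from 250 bases before to 50 bases after the start for 53 members. Only the longest stretch free of annotated exons is printed, 5′ to 3′ on the gene's strand, and capitals mark matches to GCGCANGCG, the core of the NRF1 motif, or CCGGAAG, the core bound by ETS factors such as GABPA, on either strand with overlaps allowed. Cox6a1 is printed from chr5:115348982-115349129, minus strand, positions -171 to -24 relative to the start. Ndufs5 is from chr4:123718203-123718436, minus strand, positions -250 to -17, and Sdhd from chr9:50603850-50603909, minus strand, positions -60 to -1. Ndufv2 is from chr17:66101560-66101809, minus strand, positions -250 to -1, and Cox7a1 from chr7:30183921-30184143, plus strand, positions -250 to -28.
Cox6a1: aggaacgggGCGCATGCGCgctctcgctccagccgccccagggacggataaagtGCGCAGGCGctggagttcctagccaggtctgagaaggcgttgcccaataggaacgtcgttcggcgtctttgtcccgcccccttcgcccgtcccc
Ndufs5: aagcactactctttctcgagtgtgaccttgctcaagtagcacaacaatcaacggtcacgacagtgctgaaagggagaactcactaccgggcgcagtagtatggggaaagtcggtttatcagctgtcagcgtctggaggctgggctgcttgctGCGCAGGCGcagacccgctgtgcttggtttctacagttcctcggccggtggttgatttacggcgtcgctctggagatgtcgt
Sdhd: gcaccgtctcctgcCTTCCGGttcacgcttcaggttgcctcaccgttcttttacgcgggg
Ndufv2: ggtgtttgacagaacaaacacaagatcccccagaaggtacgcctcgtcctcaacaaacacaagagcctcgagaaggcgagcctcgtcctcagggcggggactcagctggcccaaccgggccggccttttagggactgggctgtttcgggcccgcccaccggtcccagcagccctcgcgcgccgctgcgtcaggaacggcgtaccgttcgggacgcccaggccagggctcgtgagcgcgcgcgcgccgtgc
Cox7a1: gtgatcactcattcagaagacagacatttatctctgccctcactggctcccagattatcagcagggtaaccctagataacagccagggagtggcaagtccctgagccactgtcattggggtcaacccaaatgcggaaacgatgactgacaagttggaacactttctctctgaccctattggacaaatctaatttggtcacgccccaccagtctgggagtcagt

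The stretch of Cox6a1 held overlapping matches to the NRF1 letters on both strands near its 5′ end and a further match downstream, and a match to the ETS letters lay in its window outside the printed stretch. Ndufs5 held 1 match, to the NRF1 letters, and the Sdhd window held a match to the NRF1 letters upstream of its printed stretch beside the ETS match shown. Over all 55 member windows, 14 held the NRF1 letters (25.5%), against 6.25% of all 32851 RefSeq windows and 14.5% of 8250 windows of genes at 20 CPM or more. The ETS letters were in 11 member windows (20.0%), against 8.86% of all windows and 18.8% of the windows of expressed genes. The YY1 letters AAGATGGCG were in 5 windows (9.09%), against 1.403% and 3.45%, and the estrogen-related receptor letters TCAAGGTCA in 1 (1.82%), against 0.423% and 0.230%. At least 1 of the NRF1 and ETS letters was present in 40.0% of the member windows, against 13.9% and 30.1%. The 4 windows of members under 20 CPM held none of these letters. A match is a string of letters and not a bound site. Members without a RefSeq window in the table include Cox4i1, Cox4i2, Cox6a2, Cox6c, Cox8c, Ndufa2, Ndufb9, Ndufs1, Sdhc, Uqcrb, Uqcrc2 and Uqcrq.

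Counts summed over the cells of a group and scaled to CPM showed 59 of the 66 members at 20 CPM or more in at least 1 group. The members' share of all counts was 0.778% in LN_HEV, 0.813% in TU_HEV and 0.711% in TU_EC. By plate the share was 0.742 and 0.797% in LN_HEV, 0.808 and 0.817% in TU_HEV, and 0.682, 0.726, 0.715 and 0.718% in TU_EC. Every TU_HEV plate was above every LN_HEV plate, and every LN_HEV plate above every TU_EC plate, with the nearest plates of neighbouring groups 0.797 against 0.808% and 0.742 against 0.726%. The order of the 2 HEV groups depends on what the totals hold. The 6 HEV genes took 12.7 and 9.68% of counts in the LN_HEV plates and 0.0970 and 0.0715% in those of TU_HEV. Without the 20 most abundant features in the totals, the median log2 ratio of the members between TU_HEV and LN_HEV was -0.14 in place of 0.08. The 7 members under 20 CPM all belonged to complex IV, and each is a tissue-restricted isoform of a subunit whose common isoform was abundant.

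Levels per kilobase of exon allow members to be compared with each other. In LN_HEV the highest were Cox4i1 at 343.8 CPM per kb, Cox8a at 325.4 and Ndufa1 at 319.2. In TU_HEV they were Cox6a1 at 476.3, Cox6b1 at 379.6 and Cox8a at 365.9 CPM per kb, and in TU_EC the same 3 genes led, at 399.7, 341.2 and 333.3. Ndufs1, Ndufb4 and Ndufb2 were the lowest of the 59 in each group, between 8.39 and 15.7 CPM per kb. In the order LN_HEV, TU_HEV and TU_EC, the median over complex IV was 128.3, 152.5 and 137.1 CPM per kb, above the complex I medians of 66.9, 59.5 and 52.3. Complex III medians were 123.1, 117.3 and 101.3, and complex II medians 52.0, 55.9 and 56.0 CPM per kb. The exon models hold all annotated transcripts, so genes with long minor transcripts come out low on this scale.

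Between TU_HEV and LN_HEV, most members stood close together, and the complex IV median lay above the complex I median. Cox6c and Cox6a1, both accessory subunits of complex IV, were higher in TU_HEV. Ndufs3, Ndufs7 and Ndufv2, which are among the core subunits of the complex I arm that takes up electrons, were lower. Ndufv1, Ndufs1 and Ndufs8 of the same arm did not pass the rule that follows. A member was called when it reached 20 CPM in the higher group, differed at least 1.5-fold between the group sums, and had all plates of one group above all plates of the other. By this rule 2 of 59 members (3.39%) were called higher, where 26.8% of all 7796 features tested were, and 3 of 59 (5.08%) lower, where 14.5% of all features were. Another 54 of the 59 members (91.5%) differed by less than 1.5-fold, against 51.8% of all features.

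Cox6c was at 156.3 and 139.2 CPM in the LN_HEV plates, 283.3 and 297.1 in those of TU_HEV, and 170.2, 171.8, 174.1 and 184.4 in those of TU_EC. Both TU_HEV plates were above all 6 other plates, and the LN_HEV plates were below all TU_EC plates. The group sums were 145.1 CPM in LN_HEV and 290.9 in TU_HEV, a ratio of 2.00-fold (95% interval 1.97 to 2.04), where intervals here and below are exact Poisson intervals that cover counting error only, since PCR copies without molecular identifiers are not independent molecules. Cox6a1, the common isoform of subunit 6a, was at 170.9 and 204.5 CPM in the LN_HEV plates, 337.3 and 331.9 in those of TU_HEV, and 253.9, 326.7, 274.2 and 258.4 in those of TU_EC. The TU_HEV plates were again the highest, poolB lay close under them, and both LN_HEV plates were below all others. Its ratio between TU_HEV and LN_HEV was 1.73-fold (95% interval 1.71 to 1.76). Cox6c kept its call under all 16 alternative settings and Cox6a1 under 14 of 16, being lost without the 20 most abundant features in the totals and at a 2-fold limit.

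Ndufs3, a core subunit near the quinone site, was at 140.9 and 110.1 CPM in the LN_HEV plates, 79.9 and 58.6 in those of TU_HEV, and 115.3, 84.4, 79.4 and 105.6 in those of TU_EC. PoolC lay just under pool3, so TU_HEV overlapped TU_EC but not LN_HEV. Ndufs3 was lower in TU_HEV than in LN_HEV by 1.77-fold (95% interval 1.72 to 1.82). Ndufs7, which holds the last iron-sulphur cluster before ubiquinone, was at 106.5 and 121.02 CPM in the LN_HEV plates, 99.5 and 47.5 in those of TU_HEV, and 69.7, 93.5, 95.0 and 84.9 in those of TU_EC. Pool3 and pool4 differed from each other more than pool3 differed from LN_HEV, and the call of 1.64-fold (95% interval 1.59 to 1.68) lower was lost without pool4 and under 3 other settings. Ndufv2, an iron-sulphur subunit of the NADH-binding tip, was at 133.3 and 164.5 CPM in the LN_HEV plates, 104.1 and 98.5 in those of TU_HEV, and 86.2, 143.04, 95.7 and 117.7 in those of TU_EC. Its TU_HEV plates lay under both LN_HEV plates and within the TU_EC range, the difference was 1.52-fold (95% interval 1.49 to 1.56) lower, and the call was lost without pool2, without pool4 and under 4 other settings.

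Of the other core subunits of complex I, 3 are given by plate. Ndufv1, which binds NADH and flavin, was at 101.5 and 102.3 CPM in the LN_HEV plates, 85.3 and 130.6 in those of TU_HEV, and 62.8, 83.8, 95.0 and 98.5 in those of TU_EC. Ndufs1, the large iron-sulphur subunit, was at 120.6 and 130.5 CPM in the LN_HEV plates, 60.0 and 116.2 in those of TU_HEV, and 78.7, 95.3, 85.3 and 82.0 in those of TU_EC. Pool3 was the lowest plate for Ndufs1 while pool4 was near the LN_HEV plates, so the TU_HEV plates lay farther apart than any 2 group sums. Ndufs8, an iron-sulphur subunit of the same arm, was at 194.5 and 210.2 CPM in the LN_HEV plates, 171.8 and 179.1 in those of TU_HEV, and 155.2, 123.3, 136.04 and 154.7 in those of TU_EC. Both LN_HEV plates were the highest for Ndufs8 and both TU_HEV plates lay between them and the TU_EC plates.

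**Figure D1:**
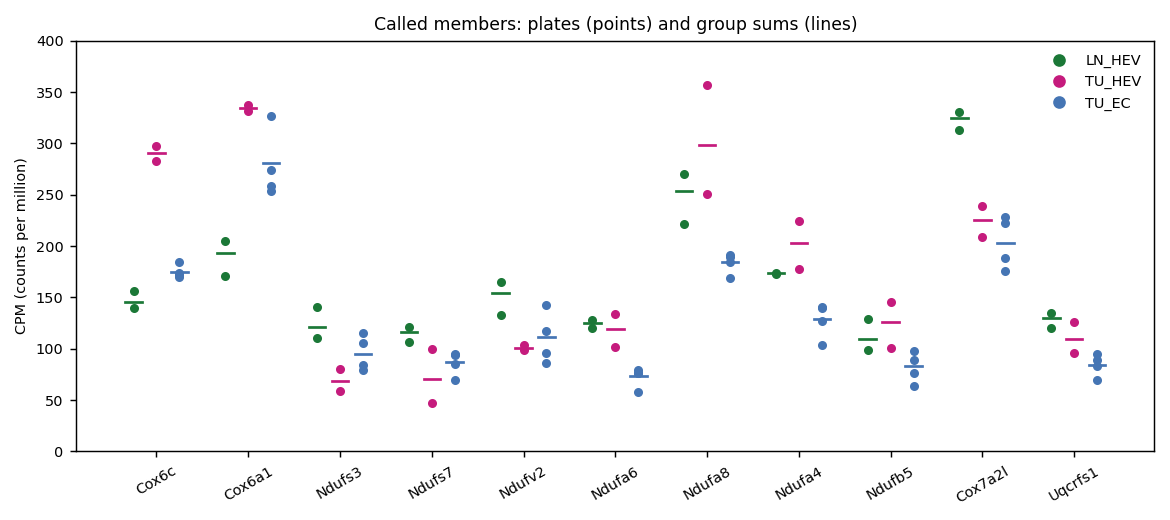
CPM of the 11 members called in any of the 3 comparisons, with a point for each plate and a line for the sum over the cells of a group, on an axis that starts at 0. Cox6c and Cox6a1 stand highest in the TU_HEV plates (283.3 and 297.1 CPM, and 337.3 and 331.9 CPM), and Cox7a2l in the LN_HEV plates (313.3 and 330.3 CPM).

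The tilt between complexes was seen in the medians. The median log2 ratio of TU_HEV to LN_HEV was -0.05 over 36 complex I members, 0.17 over 4 of complex II, 0.15 over 8 of complex III and 0.34 over 11 of complex IV. The median over all 59 members was 0.08, with -0.01 to 0.15 over the 4 pairs of plates, and the median over all features was 0.18. Relative to the all-feature median the members were at -0.10, with 29 of 36 complex I members below it and 6 of 11 complex IV members above it. The complex I median was near 0 in the main setting, with 16 of 36 members above 0 and -0.10 to 0.05 over the pairs of plates. It depended on the scaling, at 0.07 with all features in the totals, -0.265 without the 20 most abundant features and -0.21 with size factors. The complex II and III medians were also below 0 without the 20 most abundant features (-0.05 and -0.06), while the complex IV median was above 0 in every alternative run, the lowest being 0.13. The sign of the member median depended on the scaling: it was -0.14 without the 20 most abundant features in the totals, -0.08 with size factors, and -0.01 without pool4. The 6 HEV genes alone took 10.7% of LN_HEV counts and 0.0830% of TU_HEV counts, and their part in this was not tested beyond that alternative. The difference between the complex IV and complex I medians, which no scaling of the totals moves, was 0.39. It ranged from 0.32 to 0.48 over 15 alternatives. These include the changes of totals and the size factors, which rescale all members alike and so could not test it.

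Summed by complex, the same pattern was smaller. Complexes were assigned by gene symbol, here and in the medians. Ndufa4, now placed with complex IV, thus counted with complex I, and Cox7a2l, which joins complexes III and IV, with complex IV. Complex I genes took 0.367 and 0.391% in LN_HEV, 0.367 and 0.367% in TU_HEV, and 0.315, 0.326, 0.325 and 0.333% in TU_EC. Complex IV genes took 0.213 and 0.220% in LN_HEV, 0.2497 and 0.259% in TU_HEV, and 0.202, 0.225, 0.215 and 0.218% in TU_EC. The TU_HEV plates were the 2 highest for complex IV, and for complex I they lay at the level of pool1 and above all TU_EC plates. The quotient of complex I over complex IV counts was 1.73 and 1.77 in the LN_HEV plates, 1.47 and 1.42 in the TU_HEV plates, and 1.56, 1.45, 1.52 and 1.53 in the TU_EC plates. LN_HEV thus stood above both tumour groups, which overlapped. Without Cox6c and Cox6a1 the quotient was 2.08, 1.91 and 1.92 in LN_HEV, TU_HEV and TU_EC, a smaller distance. The LN_HEV plates, at 2.04 and 2.10, were still above those of TU_HEV at 1.96 and 1.87 and of TU_EC at 1.97, 1.87, 1.92 and 1.92.

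**Figure D2:**
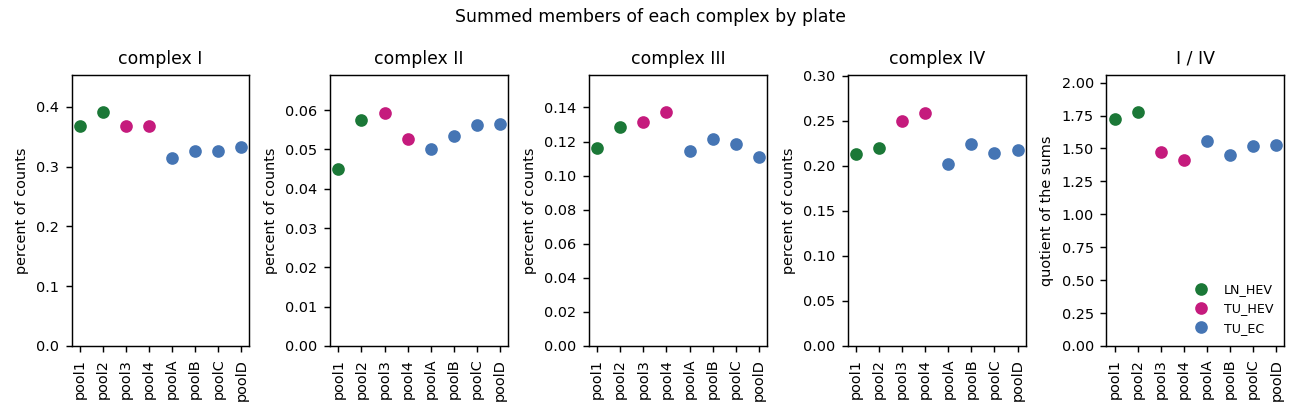
Percent of counts in the members of each complex, and the quotient of complex I over complex IV, with a point for each of the 8 plates and axes that start at 0. Complex IV is highest in the TU_HEV plates (0.2497 and 0.259%), and the quotient is highest in the LN_HEV plates (1.73 and 1.77).

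Between TU_HEV and TU_EC, the 2 tumour groups, the members were on the higher side in TU_HEV by the median of each of the 4 complexes. Cox6c and 4 genes named as complex I subunits, Ndufa4, Ndufa6, Ndufa8 and Ndufb5, were called higher, and no member was called lower. These were 5 of 58 tested members (8.62%), against 14.0% of all 7860 features called higher, and 0 of 58 against 15.5% called lower. Of the 58, 53 (91.4%) differed by less than 1.5-fold, against 59.5% of all features. The median log2 ratio was 0.18 over the members, 0.12 to 0.27 over the 8 pairs of plates, with an all-feature median of -0.03. By complex it was 0.21, 0.16, 0.23 and 0.15 for I, II, III and IV, and 47 of 58 members were above the all-feature median. For the 4 complex II members the pairs of plates gave medians from -0.05 to 0.32. Their summed counts had a ratio of 1.03, from 0.93 to 1.19 over the pairs.

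Ndufa6, an accessory subunit of the LYR family that binds acyl carrier protein, was at 120.4 and 127.95 CPM in the LN_HEV plates, 101.2 and 133.6 in those of TU_HEV, and 58.3, 76.0, 79.2 and 76.7 in those of TU_EC. All TU_EC plates were below all MECA79+ plates, and TU_HEV was higher by 1.63-fold (95% interval 1.59 to 1.67), a call lost without pool4. Ndufa8, an accessory subunit folded in the intermembrane space, was at 221.9 and 269.7 CPM in the LN_HEV plates, 356.6 and 250.7 in those of TU_HEV, and 184.5, 191.1, 189.4 and 168.8 in those of TU_EC. Pool3 stood above all other plates, the ratio was 1.62-fold (95% interval 1.59 to 1.64), and the call was lost without pool3. Ndufa4 carries a complex I name but is now placed with complex IV, and was at 172.6 and 173.9 CPM in the LN_HEV plates, 177.7 and 224.1 in those of TU_HEV, and 126.7, 140.8, 139.7 and 103.7 in those of TU_EC. Its ratio was 1.57-fold (95% interval 1.54 to 1.6001), with LN_HEV plates beside pool3, and the call was lost without pool4 and without poolD. Ndufb5, an accessory subunit of the membrane arm, was at 128.7 and 98.8 CPM in the LN_HEV plates, 100.9 and 145.9 in those of TU_HEV, and 63.8, 88.7, 98.2 and 76.0 in those of TU_EC. Pool3 and poolC nearly met, the ratio was 1.52-fold (95% interval 1.48 to 1.55), and the call was lost under 7 of 18 alternatives, leaving out pool4, poolA or poolD among them. For Cox6c the ratio was 1.66-fold (95% interval 1.64 to 1.69), called in 17 of 18 alternatives.

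On the lower side in TU_HEV, Ndufs3 had a log2 ratio to TU_EC of -0.47, and its plates overlapped. Ndufa11, a membrane subunit beside the core of the proton-pumping arm, was at 114.01 and 101.98 CPM in the LN_HEV plates, 90.4 and 73.4 in those of TU_HEV, and 107.5, 123.9, 93.4 and 100.1 in those of TU_EC, a log2 ratio of -0.39. Ndufv3, an accessory subunit of the NADH-binding tip, was at 65.0 and 72.1 CPM in the LN_HEV plates, 50.6 and 66.8 in those of TU_HEV, and 87.9, 68.1, 74.5 and 70.1 in those of TU_EC, a log2 ratio of -0.33. For both genes all TU_HEV plates were below all TU_EC plates, with folds under 1.5.

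Between LN_HEV and TU_EC, the groups that differ in both tissue and gate, complex I members were on the higher side in LN_HEV. Ndufa6, the Rieske iron-sulphur protein gene Uqcrfs1, and Cox7a2l were called higher, and no member lower. These were 3 of 59 (5.08%), against 14.4% of all 8015 features called higher, and 0 of 59, against 27.1% called lower. In all, 56 of 59 members (94.9%) differed by less than 1.5-fold, against 48.3% of all features. The median log2 ratio was 0.13 over the members, 0.04 to 0.19 over the 8 pairs of plates, and -0.19 over all features, and 48 of 59 members were above the latter. Medians by complex were 0.25, -0.06, 0.18 and -0.14 for I, II, III and IV. The complex I median was above 0 in every alternative run. The complex IV median turned to 0.15 with all features in the totals, 0.08 without the 20 most abundant and 0.0066 with size factors, the sum over complex IV had a ratio of 1.01, and 6 of 11 complex IV members were above the all-feature median. The complex III median turned to -0.19 without pool2.

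Ndufa6 had a ratio of 1.72-fold (95% interval 1.68 to 1.76) between LN_HEV and TU_EC, from the plate values above. Cox7a2l, which joins complexes III and IV into supercomplexes, was at 313.3 and 330.3 CPM in the LN_HEV plates, 209.01 and 238.9 in those of TU_HEV, and 188.4, 175.2, 222.04 and 228.4 in those of TU_EC. Its LN_HEV plates were the 2 highest of all 8, and the tumour groups overlapped. The ratio to TU_EC was 1.601-fold (95% interval 1.58 to 1.63), and TU_HEV was lower than LN_HEV by 1.44-fold (95% interval 1.42 to 1.46), under the limit. Uqcrfs1 was at 119.8 and 135.1 CPM in the LN_HEV plates, 126.1 and 96.2 in those of TU_HEV, and 69.3, 82.7, 95.2 and 89.4 in those of TU_EC. Pool4 lay just above poolC, and the ratio of LN_HEV to TU_EC was 1.54-fold (95% interval 1.5004 to 1.57), called in 12 of 18 alternatives and lost without pool2 or without poolA. Ndufa6 and Cox7a2l were called in 17 of 18.

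The lowest ratios of LN_HEV to TU_EC were those of Cox6a1, with a log2 ratio of -0.54, Cox5b and Ndufb8. Cox5b, a zinc-binding subunit of complex IV, was at 100.5 and 114.7 CPM in the LN_HEV plates, 154.9 and 132.1 in those of TU_HEV, and 130.4, 165.6, 118.3 and 141.6 in those of TU_EC, a log2 ratio of -0.34. Ndufb8, an accessory subunit of the membrane arm, was at 101.4 and 152.3 CPM in the LN_HEV plates, 157.9 and 170.3 in those of TU_HEV, and 159.8, 156.3, 169.9 and 180.7 in those of TU_EC, a log2 ratio of -0.30. Pool1 was the lowest plate for both, and pool2 was under the TU_EC plates in both. The count of calls higher in LN_HEV depended on scaling and weighting: it was 16 with all features in the totals, 16 without the 20 most abundant, 16 with equal weight per cell and 11 with size factors, all with 0 called lower. The shares of all features called higher and lower were then 20.4% and 19.9%, 20.5% and 20.3%, 15.2% and 25.9%, and 18.0% and 22.8%. Each group enters 2 of the 3 comparisons, so they are not independent of each other.

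**Figure D3:**
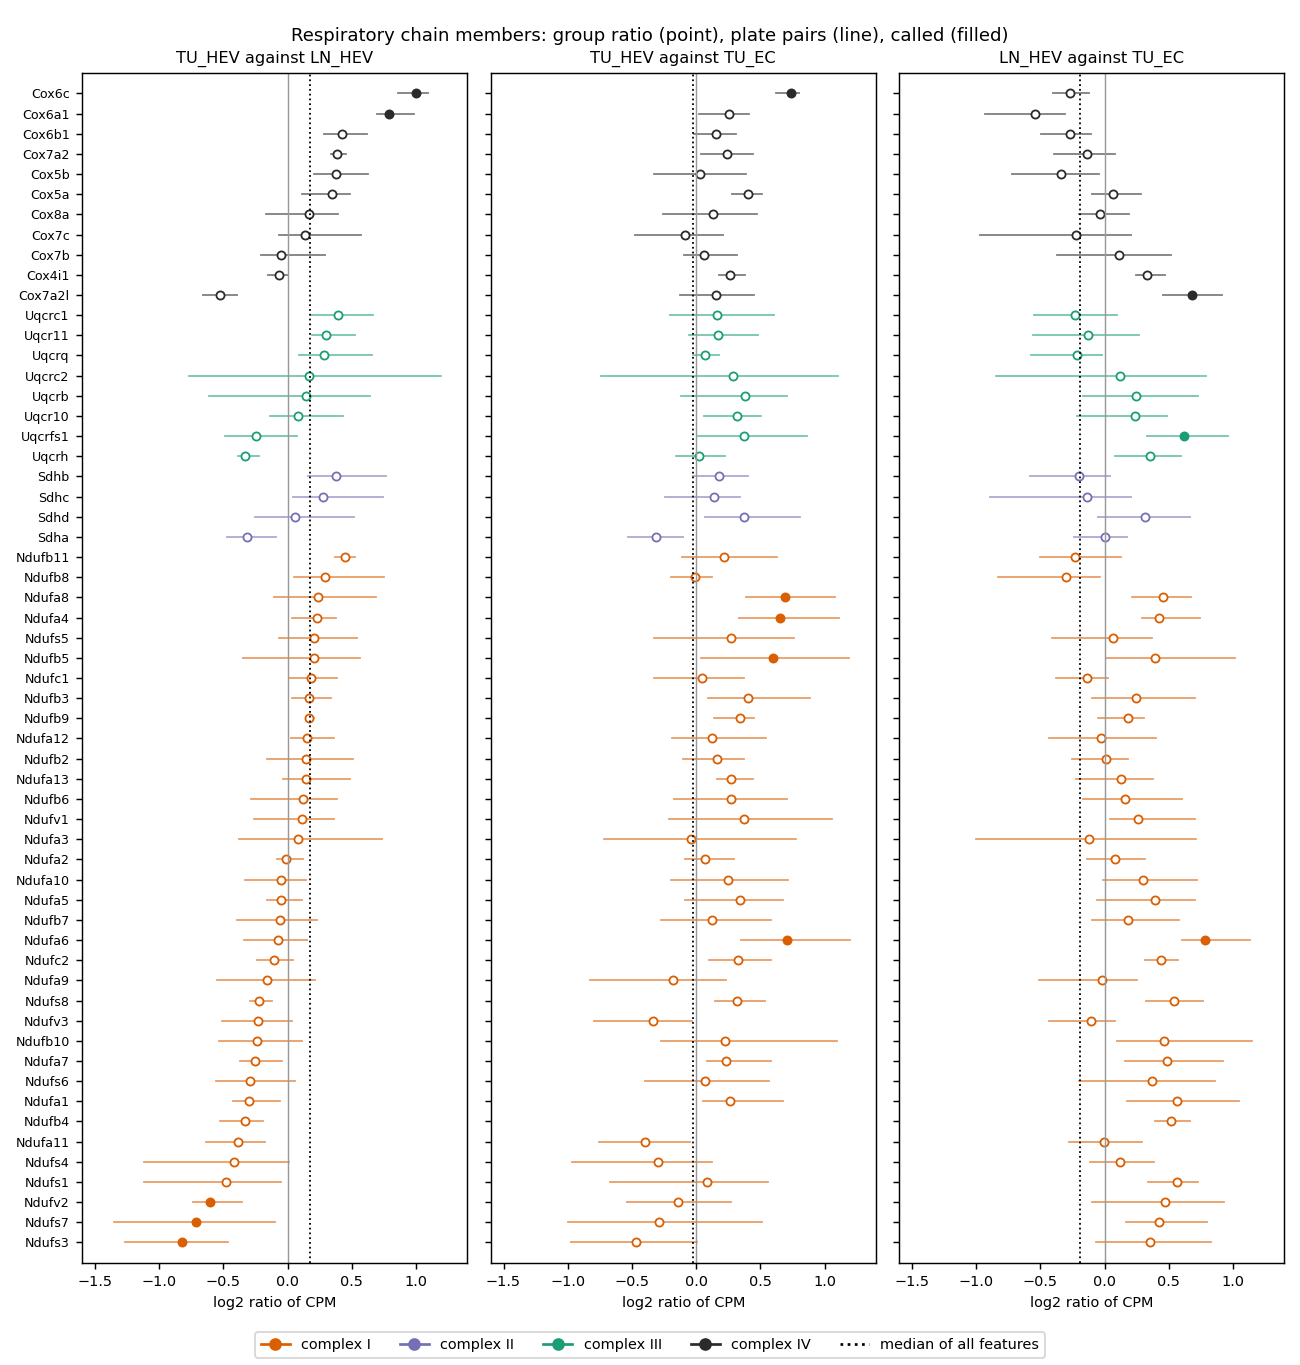
Log2 ratio of CPM of 58 of the 59 members in the 3 comparisons, with a point for the group sums, a line over the lowest to highest pair of plates, filled points for called members and a dotted line at the median of all features. The dotted lines stand at 0.18, -0.03 and -0.19, and most members lie to their left in TU_HEV against LN_HEV and to their right in both comparisons with TU_EC.

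Complex II and III members showed small differences. Sdha, the flavoprotein that oxidises succinate, was at 183.1 and 207.7 CPM in the LN_HEV plates, 171.6 and 150.1 in those of TU_HEV, and 193.1, 195.5, 216.3 and 184.4 in those of TU_EC. Sdhb, the iron-sulphur subunit, was at 102.9 and 136.3 CPM in the LN_HEV plates, 175.03 and 151.8 in those of TU_HEV, and from 132.4 to 154.3 over those of TU_EC. Sdha had both TU_HEV plates at the low end, while Sdhb had pool3 and pool1 at opposite ends. Of the membrane anchors, Sdhc was at 78.5 and 119.5 CPM in the LN_HEV plates, 122.9 and 131.5 in those of TU_HEV, and 103.8, 110.3, 108.5 and 145.5 in those of TU_EC. Sdhd was at 86.7 and 112.4 CPM in the LN_HEV plates, 123.98 and 94.2 in those of TU_HEV, and 70.9, 89.8, 82.6 and 88.5 in those of TU_EC. Pool1 was the lowest plate of Sdhb and Sdhc, and for no complex II gene did the group sums differ 1.5-fold. The sum over the 4 genes was 0.0533% in LN_HEV, 0.0557% in TU_HEV and 0.0541% in TU_EC.

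Uqcrc1, a core protein of complex III, was at 244.5 and 272.1 CPM in the LN_HEV plates, 388.6 and 309.5 in those of TU_HEV, and 304.9, 302.97, 357.2 and 254.9 in those of TU_EC. Pool1, poolD and pool2 were the 3 lowest plates, and pool3 the highest. Its partner Uqcrc2 was at 77.1 and 141.6 CPM in the LN_HEV plates, 83.1 and 176.3 in those of TU_HEV, and 138.6, 101.4, 116.4 and 82.0 in those of TU_EC. Within LN_HEV and within TU_HEV the plates of Uqcrc2 lay farther apart than any 2 group sums, from 77.1 to 141.6 and from 83.1 to 176.3 CPM. Of the small subunits, Uqcrh, the acidic hinge protein, was at 219.4 and 243.2 CPM in the LN_HEV plates, 188.2 and 186.1 in those of TU_HEV, and 161.4, 207.8, 174.5 and 190.1 in those of TU_EC, and Uqcrq, a subunit next to cytochrome b, was at 71.7 and 98.4 CPM in the LN_HEV plates, 113.3 and 104.9 in those of TU_HEV, and 99.9, 106.7, 103.7 and 104.3 in those of TU_EC. In LN_HEV, TU_HEV and TU_EC, Uqcrb stood at 182.3, 200.8 and 154.2 CPM, Uqcr10 at 88.1, 93.1 and 74.8 CPM and Uqcr11 at 135.1, 166.4 and 147.9 CPM. All 8 complex III members had a log2 ratio of TU_HEV to TU_EC between 0.02 and 0.38.

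Isoform pairs of complex IV split into one abundant and one nearly absent gene in all groups. Cox4i1, the common subunit 4 that is added early in assembly, was at 553.8 and 521.9 CPM in the LN_HEV plates, 522.2 and 496.9 in those of TU_HEV, and 400.6, 439.7, 438.7 and 407.6 in those of TU_EC. Its alternative Cox4i2, known from lung and from low oxygen, had 1 count in 1 TU_EC plate and none elsewhere. A count of 0 allows up to 0.0253 CPM in LN_HEV and 0.0226 in TU_HEV (3 counts of the group total). Cox6b1, which faces cytochrome c, was at 182.2 and 209.6 CPM in the LN_HEV plates, 254.8 and 280.1 in those of TU_HEV, and 226.2, 257.1, 232.2 and 250.6 in those of TU_EC, and the testis isoform Cox6b2 at 0, 0.596 and 1.17 CPM in the group sums. The muscle isoform Cox6a2 had no count in any plate, beside the abundant Cox6a1.

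Cox7a2, the common subunit 7a, was at 116.2 and 123.7 CPM in the LN_HEV plates, 156.4 and 158.9 in those of TU_HEV, and 132.9, 126.8, 152.6 and 116.7 in those of TU_EC, with both TU_HEV plates the highest and pool1 and poolD the lowest. The muscle isoform Cox7a1 was at 0.295, 0.0151 and 0.607 CPM in LN_HEV, TU_HEV and TU_EC. Cox7b was at 93.7 and 131.2 CPM in the LN_HEV plates, 113.7 and 114.6 in those of TU_HEV, and 91.8, 121.4, 108.4 and 114.7 in those of TU_EC, with all groups overlapping, and Cox7b2, a testis isoform, had no count. Cox8a, the common subunit 8, was at 211.6 and 196.1 CPM in the LN_HEV plates, 188.3 and 257.9 in those of TU_HEV, and 204.2, 224.8, 185.2 and 212.4 in those of TU_EC, and these groups overlapped too. Cox8b, known from muscle and brown fat, was at 0.573 CPM in TU_HEV, all of it from pool3, and at 0 elsewhere, and Cox8c had no count. Cox5a, a matrix-facing subunit, was at 170.8 and 142.5 CPM in the LN_HEV plates, 184.9 and 199.9 in those of TU_HEV, and 145.8, 152.1, 144.01 and 140.2 in those of TU_EC, with the TU_HEV plates above all others. Cox7c was at 60.4 and 89.0 CPM in the LN_HEV plates, 89.5 and 84.9 in those of TU_HEV, and 77.3, 85.3, 92.9 and 118.2 in those of TU_EC, and its groups overlapped.

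The remaining complex I members are accessory subunits. Ndufb11, a membrane subunit, had the highest ratio of TU_HEV to LN_HEV among all complex I members and was at 83.9 and 82.4 CPM in the LN_HEV plates, 118.7 and 108.3 in those of TU_HEV, and 76.6, 99.5, 97.7 and 116.8 in those of TU_EC. Both TU_HEV plates were above both LN_HEV plates, a log2 ratio of 0.45, while the TU_EC plates reached from under the LN_HEV plates almost to pool3. Group sums of the others follow in the order LN_HEV, TU_HEV and TU_EC, in CPM. Ndufa1 (133.8, 108.7 and 90.6), Ndufa7 (98.9, 82.7 and 70.5), Ndufb10 (117.4, 99.6 and 85.4) and Ndufc2 (117.3, 108.9 and 86.6) stood highest in LN_HEV and lowest in TU_EC, as did Ndufb4, the lowest of the 59 by CPM, at 23.1, 18.4 and 16.1 CPM. Ndufa12 (55.3, 61.5 and 56.3), Ndufa13 (88.8, 97.98 and 81.4), Ndufb3 (65.8, 73.8 and 55.7), Ndufb9 (128.4, 143.7 and 113.3) and Ndufc1 (45.1, 51.3 and 49.6) stood highest in TU_HEV. For 11 members the plates overlapped in each pair of groups: Ndufa2 (116.3, 115.5 and 110.1), Ndufa3 (67.8, 71.5 and 73.7), Ndufa5 (56.7, 54.6 and 43.2), Ndufa9 (89.4, 80.1 and 90.6), Ndufa10 (121.02, 117.03 and 98.5), Ndufb2 (50.2, 55.6 and 49.8), Ndufb6 (90.7, 98.5 and 81.4), Ndufb7 (91.2, 87.6 and 80.3), Ndufs4 (75.2, 56.3 and 69.2), Ndufs5 (53.0, 61.1 and 50.6) and Ndufs6 (92.4, 75.3 and 71.6). Ndufs4 had the widest TU_HEV spread of these, with pool3 at 38.9 and pool4 at 70.6 CPM.

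Other genes of energy metabolism were read from lists by the same rule. Over all features, 26.8% were called higher and 14.5% lower in TU_HEV than in LN_HEV. The shares were 14.0% and 15.5% in TU_HEV against TU_EC, and 14.4% and 27.1% in LN_HEV against TU_EC. They apply to the counts of each list below. The 13 mitochondrially encoded subunits took 3.09% in LN_HEV, 3.00% in TU_HEV and 3.38% in TU_EC, with overlapping plates. Between TU_HEV and LN_HEV, 0 of 13 were called higher and 3 lower: mt-Nd3, mt-Nd4 and mt-Nd6. These are subunits of complex I, as is every mt-Nd gene of the list. Mt-Nd6 was at 137.4 and 270.5 CPM in the LN_HEV plates, 90.2 and 88.9 in those of TU_HEV, and 97.6, 83.8, 96.5 and 87.4 in those of TU_EC. Pool1 and pool2 lay far apart, and both were above all other plates. Against TU_EC, 0 were higher and 1 lower (mt-Nd3) in TU_HEV, and 1 higher (mt-Nd6) and 0 lower in LN_HEV. Of 17 ATP synthase genes, 1 was called higher in TU_HEV than in LN_HEV (Atpif1, the inhibitory factor) and 1 lower (Atp5g2, a ring subunit), 0 and 0 between TU_HEV and TU_EC, and 0 higher and 2 lower (Atp5k and Atpif1) in LN_HEV than in TU_EC. The list took 0.340% in LN_HEV, 0.381% in TU_HEV and 0.373% in TU_EC.

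Assembly factors were mostly low. Of 13 for complex I, 6 could be tested between TU_HEV and LN_HEV with 1 called higher, 6 between TU_HEV and TU_EC with 2 higher, and 5 between LN_HEV and TU_EC with 0, and none was called lower. Ndufaf7, a methyltransferase, was the gene higher in both of the first comparisons, at 2.06 and 13.4 CPM in the LN_HEV plates, 28.0 and 36.7 in those of TU_HEV, and 7.97, 20.5, 24.6 and 2.98 in those of TU_EC. Of 27 factors for complexes II to IV, 3 of 18 were higher and 2 lower in TU_HEV than in LN_HEV, 1 higher and 1 lower of 18 in TU_HEV than in TU_EC, and 4 of 19 higher and 0 lower in LN_HEV than in TU_EC. Coa5 and Bcs1l, factors for complexes IV and III, were lower in TU_HEV than in LN_HEV, with 91.1, 43.0 and 56.6 CPM for Coa5 and 36.0, 15.3 and 13.9 CPM for Bcs1l in LN_HEV, TU_HEV and TU_EC.

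Of 16 genes of the tricarboxylic acid cycle and pyruvate dehydrogenase, 1 was higher and 1 lower in TU_HEV than in LN_HEV, 0 and 1 against TU_EC, and 1 and 1 in LN_HEV against TU_EC. Dlst, a subunit of oxoglutarate dehydrogenase, was the gene higher in TU_HEV, and Suclg2, of the GTP-forming succinyl-CoA ligase, the one lower, at 102.9 and 137.97 CPM in the LN_HEV plates, 60.1 and 48.0 in those of TU_HEV, and 55.9, 37.8, 68.9 and 70.8 in those of TU_EC. The TU_HEV and TU_EC plates of Suclg2 overlapped, and both LN_HEV plates were above them. The list took 0.203% in LN_HEV, 0.188% in TU_HEV and 0.209% in TU_EC.

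Glycolysis genes differed more. Their share of counts was 0.316 and 0.333% in LN_HEV, 0.465 and 0.455% in TU_HEV, and 0.895, 0.611, 0.640 and 0.811% in TU_EC, with no overlap between groups. Of 13 tested, 7 were called higher and 1 lower in TU_HEV than in LN_HEV, 0 and 7 in TU_HEV than in TU_EC, and 1 and 11 in LN_HEV than in TU_EC. Among all features these shares were 26.8% and 14.5%, 14.0% and 15.5%, and 14.4% and 27.1%. Pkm, pyruvate kinase, was at 505.3 and 613.6 CPM in the LN_HEV plates, 991.1 and 950.5 in those of TU_HEV, and 2320.5, 1628, 1590.3 and 2034 in those of TU_EC. Ldha, lactate dehydrogenase, was at 316.5 and 342.5 CPM in the LN_HEV plates, 899.1 and 875.9 in those of TU_HEV, and 1302, 952.1, 1034 and 1102 in those of TU_EC. The glucose transporter Slc2a1 ran the other way in both comparisons with LN_HEV, where it was highest. It was at 539.2 and 566.2 CPM in the LN_HEV plates, 141.1 and 145.9 in those of TU_HEV, and 407.9, 196.7, 204.6 and 229.2 in those of TU_EC. Between the tumour groups it was lower in TU_HEV, as the list sum was. The quotient of member counts over glycolysis counts was 2.34 and 2.39 in the LN_HEV plates, 1.74 and 1.79 in the TU_HEV plates, and 0.762, 1.19, 1.12 and 0.885 in the TU_EC plates. The glycolysis sums spanned 2.22-fold between groups, where the member sums spanned 1.14-fold.

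**Figure D4:**
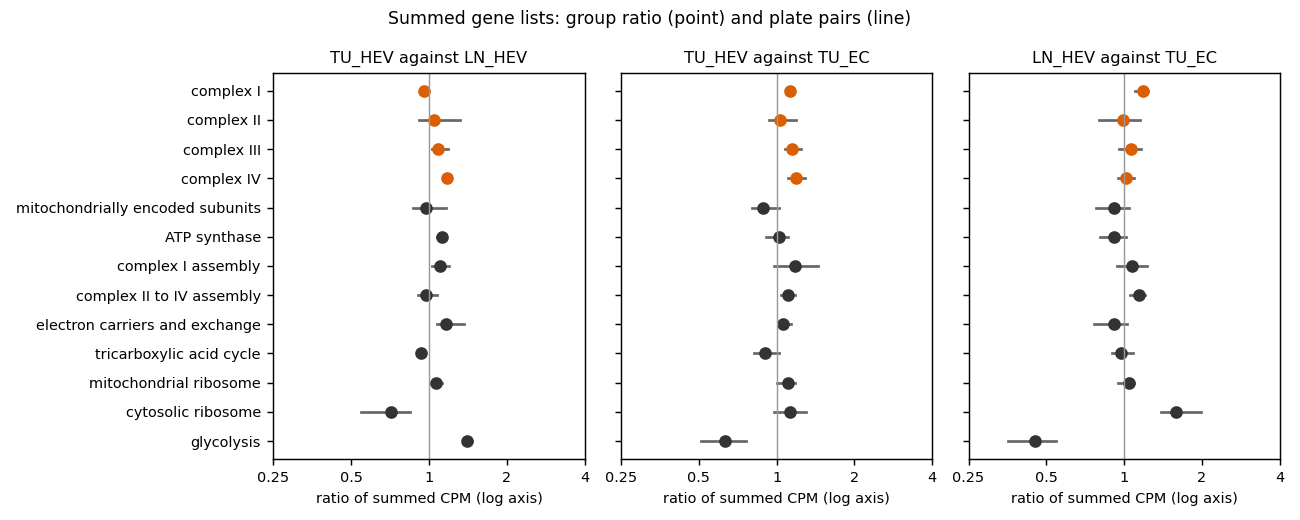
Ratio of summed CPM of each gene list between groups on a log axis, with a point for the group sums and a line over the lowest to highest pair of plates, and the 4 complexes in orange. The complexes lie near 1 in each comparison, between 0.959 and 1.19, while glycolysis stands at 1.404, 0.632 and 0.450.

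Of 15 regulators linked to mitochondrial genes, 8 could be tested. Myc, a growth factor-induced transcription factor, was at 7.31 and 20.5 CPM in the LN_HEV plates, 144.4 and 325.8 in those of TU_HEV, and 94.1, 48.6, 103.01 and 53.9 in those of TU_EC, with no overlap between groups. Tfam, which packs and transcribes mitochondrial DNA, ran from LN_HEV down to TU_EC, at 57.3 and 51.8 CPM in the LN_HEV plates, 25.3 and 39.7 in those of TU_HEV, and 11.3, 25.0, 22.0 and 22.0 in those of TU_EC. Pprc1, a coactivator of the PGC-1 family, was at 55.3 and 26.6 CPM in the LN_HEV plates, 64.5 and 61.0 in those of TU_HEV, and 45.3, 46.6, 48.7 and 74.3 in those of TU_EC, and Nrf1, whose motif is marked in the sequences above, at 30.0 and 17.5 CPM in the LN_HEV plates, 24.3 and 20.8 in those of TU_HEV, and 22.7, 28.9, 57.5 and 28.2 in those of TU_EC. Ppargc1a, the best known coactivator of the family, had 1.09 CPM in LN_HEV and no count in TU_HEV or TU_EC. By the rule Myc and Pprc1 were higher and Tfam lower in TU_HEV than in LN_HEV, Myc and Tfam higher in TU_HEV than in TU_EC, and Tfam higher and Myc lower in LN_HEV than in TU_EC.

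Members with the NRF1 letters in their RefSeq window had a median log2 ratio of TU_HEV to LN_HEV of -0.05 (13 members), against 0.10 for the 36 without. Against TU_EC the medians were 0.24 and 0.16 in TU_HEV (12 and 36 members) and 0.32 and 0.14 in LN_HEV (13 and 36). With and without the ETS letters they were 0.12 and 0.01, 0.17 and 0.21, and 0.16 and 0.18 in the same order of comparisons. These medians lie within the spread of the members and are given as a description.

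Transcript length moved with the ratios. The members at 20 CPM had a median exon length of 1478 bases, against 4546 over all such features. Among all features, the median log2 ratio of LN_HEV to TU_EC went from 0.08 under 1000 bases to -0.26 over 4000 bases, and that of TU_HEV to TU_EC from 0.12 to -0.07, while that of TU_HEV to LN_HEV went from 0.05 to 0.21. For members of 1000 to 2000 bases, the medians were 0.33 against -0.07 for all features of that length in LN_HEV to TU_EC, 0.19 against 0.04 in TU_HEV to TU_EC, and -0.05 against 0.08 in TU_HEV to LN_HEV. For the 16 members under 1000 bases the medians in the same order were 0.12 against 0.08, 0.26 against 0.12, and 0.17 against 0.05, so the member median of TU_HEV to LN_HEV was above that of all features there and below it from 1000 to 2000 bases. For the 14 members of 2000 to 4000 bases they were 0.02 against -0.15, 0.06 against -0.0021, and 0.06 against 0.17, and for the 6 longer ones 0.10 against -0.26, 0.14 against -0.07, and 0.04 against 0.21. The part of length in the member ratios was not tested further.

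In single cells, counts were thinned to 100000 per cell, which left 60 and 79 cells of the LN_HEV plates, 50 and 48 of the TU_HEV plates, and 64, 76, 78 and 68 of the TU_EC plates. A cell of LN_HEV had a count for a median of 47 members, one of TU_HEV for 41.5 and one of TU_EC for 41, and without thinning for 49, 43 and 42. The members took a median of 0.758, 0.820 and 0.663% of a cell's counts in LN_HEV, TU_HEV and TU_EC, and 0.748, 0.812 and 0.642% without thinning. As with the group shares, the order of LN_HEV and TU_HEV here depends on what the totals hold. The quartiles were 0.663 and 0.861% in LN_HEV, 0.629 and 0.979% in TU_HEV, and 0.502 and 0.800% in TU_EC. By plate the thinned medians were 0.718 and 0.787%, 0.825 and 0.814%, and 0.649, 0.720, 0.652 and 0.661%, so that poolB lay just above pool1. The coefficient of variation between cells was 20.3% in LN_HEV, 31.2% in TU_HEV and 38.6% in TU_EC. Cells of the tumour reached lower shares, down to 0.003% in TU_HEV and 0.001% in TU_EC, where the lowest LN_HEV cell had 0.453%, while the highest cells were at 1.21, 1.23 and 1.30%. Before thinning, with the shallower cells included, the highest cells were at 2.24, 1.28 and 1.29%, so the highest LN_HEV cell was among those left out.

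The lower tail held cells in which few members were detected. Fewer than 20 members had a count in 1 of 79 pool2 cells and in 0 of 60 of pool1, and in 4 of 50 and 6 of 48 cells of the TU_HEV plates (10.2% over both). In TU_EC this held for 17 of 64, 14 of 76, 13 of 78 and 16 of 68 cells (21.0% over the 4 plates). In TU_EC these 60 cells had a median of 1674 genes with a count, against 3442 in the rest, Malat1 at 19620 against 3150 CPM, and mitochondrially encoded subunits at 8.04 against 2.49% of counts. The corresponding TU_HEV medians were 2033 against 3258 genes, 20320 against 6335 CPM and 7.64 against 2.73%. The members' median share was 0.310 against 0.729% in TU_EC and 0.346 against 0.831% in TU_HEV. The cells were split by the members detected, so a lower member share was largely set by the split, and the gene count includes the members. Few genes, much nuclear Malat1 RNA and a high mitochondrial share went with few detected members, and the part of RNA quality in the differences between groups was not tested by a model. With cells of at least 2000 genes, a filter added after seeing this, the member medians were 0.09, 0.14 and 0.10 in the 3 comparisons, in place of 0.08, 0.18 and 0.13.

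**Figure D5:**
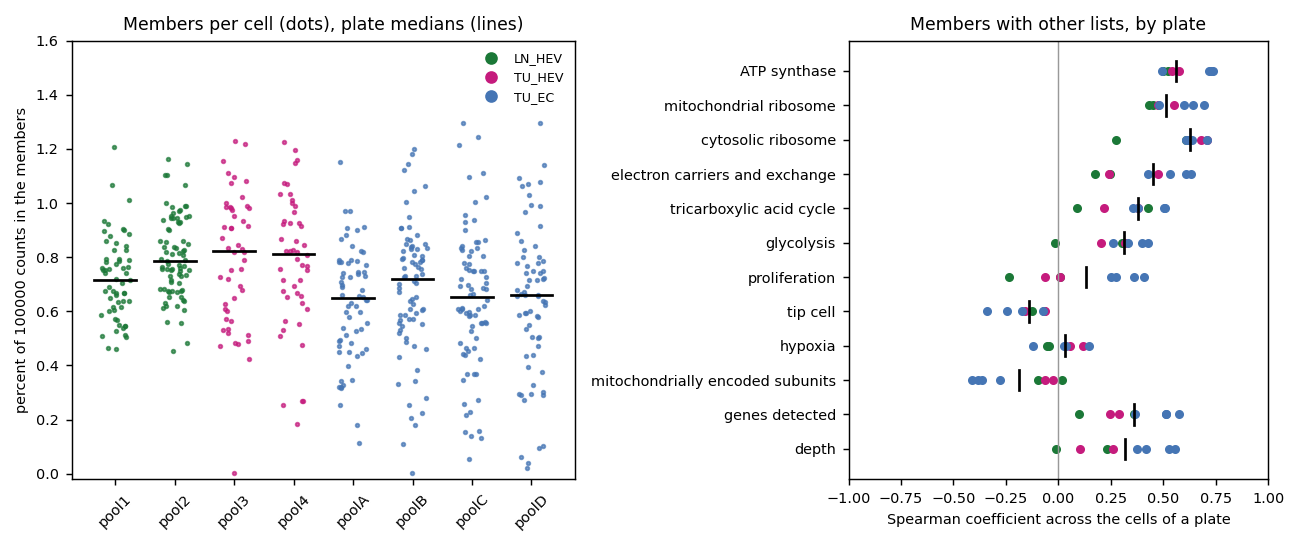
Left, percent of 100000 thinned counts in the members for each cell by plate, with plate medians as lines, and right, Spearman coefficients across the cells of each plate between the members and other lists, with the median over 8 plates as a line. The tumour plates have cells close to 0, and the coefficients are highest with the cytosolic ribosome (median 0.63) and ATP synthase (0.56).

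Across the cells of a plate, the complexes went together. The Spearman coefficient between summed complex I and complex IV counts had a median over the 8 plates of 0.57 and ranged from 0.38 to 0.66, and that between complexes I and III was 0.47. With complex II, which has the fewest counts, it was 0.26. Cells of a plate share the plate's preparation, and cells differ in depth and RNA quality, so these coefficients describe the plates and no more. The depth itself, before thinning, had a coefficient of 0.32 with the members' share, and the number of genes detected one of 0.36. Between single members the coefficient was low, with a median of 0.14 over 1653 pairs, of 0.13 for 684 pairs within a complex and 0.14 for 969 pairs between complexes.

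The members' sum went with the cytosolic ribosome (0.63), ATP synthase (0.56), the mitochondrial ribosome (0.51), electron carriers and exchangers (0.45) and the tricarboxylic acid cycle (0.38). With glycolysis the coefficient was 0.31, from -0.02 to 0.43 over plates. With the mitochondrially encoded subunits it was -0.19, and between -0.41 and -0.28 in the 4 TU_EC plates. With the tip cell list it was -0.14, below 0 in every plate, and with the hypoxia list 0.03.

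Among 5447 other genes at 20 CPM or more in every group, the one most like the members by its median coefficient over the 8 plates, leaving pseudogenes aside, was Ppia, cyclophilin A, at 0.61 (0.52 to 0.70). Rplp0, a ribosomal stalk protein, followed at 0.55 (0.12 to 0.67), Rps3, a ribosomal protein, at 0.54 (-0.28 in pool2 to 0.59) and Eif5a, a translation factor, at 0.53 (0.23 to 0.71), where the median over all these genes was 0.10 and the highest 5% began at 0.30. The 12 most alike also held Rplp1, Cfl1 and Nme1, and the predicted or pseudogene loci Gm10123, Rps2-ps10, Rpl15-ps3 and Gm20390. The most opposed named genes were Malat1 at -0.43 (-0.66 to -0.10), mt-Rnr2 at -0.38 (-0.52 to -0.13) and Col4a2 at -0.33 (-0.52 to 0.21). Col4a2 was above 0 in both LN_HEV plates, at 0.09 and 0.21, and below 0 in every tumour plate.

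Shared sequence limits some values. In GENCODE mouse release M21, 27 of the 66 members share at least 1 window of 75 bases, the read length, with a transcript of another gene, 12 share more than 10% of their windows and 0 more than 50%. Of the called members, Ndufs3 shares 12.2% (with Kbtbd4 and Gm12251), Ndufb5 10.6% (Mrpl47), Cox7a2l 10.4% (Gm6969), Cox6c 6.67% and Cox6a1 4.58%, and Ndufa4, Ndufa6, Ndufa8, Ndufs7, Ndufv2 and Uqcrfs1 none. Ndufb6 shares the most, 27.8% with Smim27 on the opposite strand. Whether reads were counted by strand is not given in the sources used here, so reads of such overlapping genes cannot be told apart. On mm10, Cox6c lies at chr15:35925886-35938246 and Cox6a1 at chr5:115345642-115348981, both on the minus strand, and Ndufs3 at chr2:90894634-90904827, also on the minus strand.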

How the data were processed

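The deposited files hold raw read counts per feature and cell from Smart-seq2 libraries. Per the submitters' processing notes, the tools were Subread 1.4.6-p2, STAR 2.4.1b and FastQC 0.11.4 with mm10 (GRCm38). The annotation, strand and multimapping settings were not given in the sources used here. Rows with a repeated symbol were summed, which turned 51826 rows into 51734 features. Cells needed 50000 counts, 1000 genes, at most 30% mitochondrial counts, 2 of 5 endothelial markers at 10 CPM and fewer than 3 of 6 genes of each contaminant list; wells were single-cell sorts, so no doublet caller was run. Counts were summed by group or plate and scaled without CT010467.1 and AY036118 (Python 3.11.15, numpy 2.4.6, scipy 1.17.1, pandas 2.3.3). With no animal labelled there is no test. Core subunits, isoform sets and the 3 largest ratios each way are named with plate values; other members and list genes were picked after their values were seen. Values of 1 member are not reported here. Members and lists were chosen with earlier results of these data known. Alternatives changed totals, scaling, weights, filters, thinning, fold and plates.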

Additional observations from a re-analysis of the deposited data

Results flagged for a closer look

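Of 65 values compared over the 4 TU_EC plates (59 members and 6 sums over complexes or all members), 2 had a plate set apart from the other 3, by Dixon's gap over range at its 95% critical value, which chance alone passes in about 1 of 20 groups. Ndufa6 was at 58.3 CPM in poolA, under 76.0, 76.7 and 79.2 CPM in the other plates, with a gap of 0.849 of the range. Sdhc was at 145.5 CPM in poolD, over 103.8, 108.5 and 110.3 CPM, with a gap of 0.845. Ndufa6 was called higher in both comparisons with TU_EC, and without poolA it was still called in both, while the call between TU_HEV and TU_EC was lost without pool4.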

How the results depend on the processing

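Each comparison was recomputed under 16 or 18 alternatives, and no called member reversed its direction in any of them. For TU_HEV against LN_HEV (median 0.08, 2 higher, 3 lower), all features in the totals gave a median of 0.22 and 1 lower, leaving out the 20 most abundant gave -0.14, 1 higher and 7 lower, size factors gave -0.077 and 5 lower, and a 2-fold limit 1 higher and 0 lower (16.8% and 8.48% of all features). The shares of all features called higher and lower were 32.7% and 9.98%, 19.0% and 21.8%, and 21.3% and 19.3% under the first 3. For TU_HEV against TU_EC (0.18, 5 and 0), equal weight per cell gave 0.28, 8 and 1 (14.9% and 14.6% of all features), all features 0.58 and 28 higher (31.0% and 6.85% of all features), thinning 0.23 and 1 lower (14.2% and 14.6%), and a 2-fold limit 0 higher (8.12%). For LN_HEV against TU_EC (0.13, 3 and 0), equal weight gave 0.29 and 16 higher, all features 0.41 and 16, leaving out the 20 most abundant 0.34 and 16, size factors 0.27 and 11, thinning 0.24 and 8 (14.6% of all features), and a 2-fold limit 0 (9.79%). Leaving out 1 plate at a time (leave-one-out) gave, for TU_HEV against LN_HEV, medians of -0.0075 (without pool4) to 0.10, 2 to 7 higher (7 without pool2) and 3 to 4 lower; for TU_HEV against TU_EC, 0.15 to 0.21, 2 to 7 higher (2 without pool4, 3 without poolD, 7 without pool3) and 0 to 3 lower (3 without pool3, 1 without pool4); and for LN_HEV against TU_EC, 0.10 to 0.15, 2 to 6 higher (6 without poolB, 5 without pool1, 2 without poolA) and 0 to 3 lower (3 without pool2). The shares of all features called higher and lower were then 29.1 to 34.98% and 17.5 to 20.6%, 14.9 to 22.4% and 16.8 to 24.4%, and 15.3 to 19.6% and 28.4 to 35.4%. A lone plate has no spread of its own, so plates separate more easily then. Relative to the all-feature median, the member medians stayed between -0.20 and -0.02, 0.16 and 0.28, and 0.28 and 0.47 over these settings, the 2-fold limit aside. The filter of at least 2000 genes per cell was chosen after seeing the data, all others with earlier results known. Of the values for named genes 1126 moved by less than the spread between plates and 12.6% of the values by more, and of the sums by complex 89 did, and 51 moved by more. Other causes were not tested.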

Other observations

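The electron transfer flavoproteins bring electrons from fatty acid and amino acid oxidation to ubiquinone. Of their 3 genes, 2 were called lower in TU_HEV than in LN_HEV, where 14.5% of all features were. Etfdh, the ubiquinone oxidoreductase, was at 99.9 and 109.5 CPM in the LN_HEV plates, 33.9 and 38.5 in those of TU_HEV, and 46.6, 55.2, 66.8 and 51.7 in those of TU_EC. Etfb was at 154.96 and 186.1 CPM in the LN_HEV plates, 126.4 and 86.4 in those of TU_HEV, and 50.2, 68.8, 90.6 and 67.6 in those of TU_EC, and its partner Etfa at 91.9 and 113.8 CPM in the LN_HEV plates, 158.1 and 73.9 in those of TU_HEV, and 66.2, 71.4, 78.0 and 62.7 in those of TU_EC. Etfdh and Etfb had both LN_HEV plates above all tumour plates and were the 2 called, while pool3 of Etfa was above both LN_HEV plates. All 3 genes were called higher in LN_HEV than in TU_EC. Of the 11 carriers and exchangers listed with them, 0 were called higher and 2 lower in TU_HEV than in LN_HEV, 0 and 1 (Etfdh) against TU_EC, and 3 and 2 (Slc25a4 and Vdac1) in LN_HEV against TU_EC. The shares of all features higher and lower in these comparisons were 26.8% and 14.5%, 14.0% and 15.5%, and 14.4% and 27.1%. The flavoprotein genes are named for their values.

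Ribosomal genes of the mitochondrion and of the cytosol differed in their pattern. Of the mitochondrial ribosome, 6 of 75 were called higher and 5 lower in TU_HEV than in LN_HEV, 5 and 1 of 74 against TU_EC, and 6 and 4 of 74 in LN_HEV against TU_EC, with sums of 0.358% in LN_HEV, 0.380% in TU_HEV and 0.344% in TU_EC. Of the cytosolic ribosome, 1 of 77 was higher and 26 lower in TU_HEV than in LN_HEV, 3 and 1 of 77 against TU_EC, and 38 and 1 of 78 in LN_HEV against TU_EC, with sums of 4.63% in LN_HEV, 3.29% in TU_HEV and 2.91% in TU_EC. For all features, the shares higher and lower in these comparisons were 26.8% and 14.5%, 14.0% and 15.5%, and 14.4% and 27.1%.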
